A study of Arabidopsis thaliana with 44 samples.

Results

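Of the 33557 genes quantified, 108 were at a transcript level well below their own warm level at both cold time points in both wild-type ecotypes, and they are described here across all 22 groups of the study. The genes were chosen on measured values: a log2 ratio of cold over warm of -1.5 or less at both cold time points, 24 h and 2 weeks, in the SW and in the IT ecotype, with 0.5 FPKM added to each level, and at least 5 FPKM in the warm in both. FPKM is the number of sequenced fragments scaled to transcript length and to the mapped fragments of the library. Of the 12017 genes that reached 5 FPKM in both warm wild types, 0.899% met the rule.

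SW and IT are Arabidopsis ecotypes collected in Sweden and Italy, and RNA was sequenced from the whole aerial part, 44 samples in 22 groups of 2. Plants grew on soil for 23 days at 22°C under a 12 h photoperiod of 100 to 120 μmol m-2 s-1. Warm plants were taken then, cold plants spent a further 24 h or 2 weeks at 4°C with light of roughly 35 μmol m-2 s-1, and all were sampled at ZT4, 4 h after dawn. Lower temperature and dimmer light, and for the 2 weeks the added time, therefore cannot be told apart as sources of a cold ratio. The SW background holds the wild type, the CRISPR/Cas9 lines sw-cbf2 and sw-cbf123, mutated in CBF2 or in CBF1, CBF2 and CBF3, and a line labelled sw-cbf23. The IT background holds the wild type, which carries a natural nonfunctional CBF2 allele shared by its derived lines. The same background holds it8, taken as the CBF1, CBF2 and CBF3 mutant from a supplementary figure of the study, and the line labelled it33. The label 35s names no ecotype, and this line is placed with the IT background by assumption. Warm ranges given for that background include 35s. The genotypes of sw-cbf23, it33 and 35s are not spelled out in the labels, and 35s was sampled in the warm alone. Each mutant is represented by a single line.

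The deposited table gives the authors' pooled value of both samples of a group, so no ratio below has a replicate check and no p-value could be formed. A gene was called between groups when its log2 ratio was -1 or less, or 1 or more, that is a 2-fold change with 0.5 FPKM added, and one of the groups reached 1 FPKM. The sum of FPKM per group ran from 880986 to 1101341, and 17705 to 18118 genes reached 1 FPKM. Mesophyll and guard cell markers were present, with medians over the groups of 1078 FPKM for CA1 and 9.87 FPKM for FAMA. The root hair markers RHD6, COBL9, EXPA7 and PRP3 stayed at 0.265 FPKM or less, and the flower markers AP1, AG, AP3 and SEP3 at 0.968 FPKM or less. Of the pollen markers, VGD1 stayed at 0.0368 FPKM or less, while VEX1 had a median of 0.72 and reached 1.19 FPKM. Sequencing depth is unknown, and exact zeros need care: RBCS1A is listed at 0 in 1 group and LHCB1.3 in all 7 groups of 2 weeks of cold, although both are among the most abundant leaf transcripts elsewhere in the table. Of the 108 genes, 5 are listed at 0 in 1 or 2 cold groups.

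Leaves exposed to low temperature slow or stop their expansion within hours, and much of the growth programme is carried by auxin and brassinosteroid. Auxin acts through TIR1-type receptors that remove Aux/IAA repressors, which frees response factors to switch on early genes such as the SAURs (small auxin up RNAs). SAUR proteins of the SAUR19 subfamily inhibit PP2C.D phosphatases, which leaves the plasma membrane proton pump active, acidifies the wall and allows the cell to take up water and expand. Wall loosening enzymes such as the xyloglucan endotransglucosylase/hydrolases (XTHs) and water channels of the plasma membrane (PIPs) and of the vacuole (TIPs) serve the same process. Chilling also slows carbon fixation and the reduction of nitrate and sulfate, while the CBF factors, which bind the CRT/DRE element, switch on protective genes.

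The promoters of 4 of the genes are shown because each stands for a group that the values below turn on: a photosynthesis gene, a pair of neighbouring growth genes and a nitrogen regulator. Each sequence is the 200 bases before the annotated transcript start in RefSeq TAIR10.1 (reference accession Col-0, not SW or IT), written 5′ to 3′ on the gene's own strand. RBCS2B lies at chr5:15382072-15382271, SAUR62 at chr1:10303419-10303618, SAUR63 at chr1:10305109-10305308 and LBD37 at chr5:26906518-26906717, all on the minus strand. Capitals mark matches, on either strand, to the short motifs listed with the promoter counts further on.
RBCS2B: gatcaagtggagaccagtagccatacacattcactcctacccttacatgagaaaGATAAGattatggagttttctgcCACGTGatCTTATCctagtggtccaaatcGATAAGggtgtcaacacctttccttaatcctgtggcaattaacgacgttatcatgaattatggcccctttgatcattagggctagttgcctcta
SAUR62: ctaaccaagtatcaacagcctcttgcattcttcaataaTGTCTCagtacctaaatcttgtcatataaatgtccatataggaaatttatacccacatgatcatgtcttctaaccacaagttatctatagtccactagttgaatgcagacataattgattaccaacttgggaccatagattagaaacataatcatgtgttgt
SAUR63: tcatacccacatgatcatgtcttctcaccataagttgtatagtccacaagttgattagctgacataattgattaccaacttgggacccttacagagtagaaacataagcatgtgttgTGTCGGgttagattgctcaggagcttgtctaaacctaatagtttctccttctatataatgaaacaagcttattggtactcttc
LBD37: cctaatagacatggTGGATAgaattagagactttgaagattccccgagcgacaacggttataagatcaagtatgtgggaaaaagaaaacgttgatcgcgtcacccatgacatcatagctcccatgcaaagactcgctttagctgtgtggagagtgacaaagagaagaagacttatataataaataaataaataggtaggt

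The RBCS2B window held a G-box (CACGTG) at -123 from the transcript start, between I-boxes (GATAAG) at -146, -115 and -94. The SAUR62 window held the auxin response element TGTCTC at -162, and the SAUR63 window TGTCGG at -83, a word that on the other strand includes the CRT/DRE core CCGAC. The windows of these neighbouring SAURs shared a run of 27 identical bases, which began at -55 in SAUR62 and at -140 in SAUR63. In LBD37 the only match was the TATCCA element on the opposite strand at -186.

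The warm levels of the 108 genes ran from 5.04 to 2298 FPKM in SW (median 26.4) and from 5.44 to 2934 FPKM in IT (median 29.6), and 18 genes were at 100 FPKM or more in SW. Together they made up 1.04% to 1.25% of all FPKM in the 8 warm groups, 0.21% to 0.331% in the 7 groups of 24 h of cold and 0.123% to 0.218% in the 7 groups of 2 weeks. In these whole-shoot samples, fewer cells of a type and less RNA per cell cannot be told apart. The median log2 ratio was -2.72 at 24 h and -2.97 at 2 weeks in SW, and -2.48 and -2.35 in IT. These 4 ratios chose the genes and are given as a description. The genes just inside the limit were LBD38 (highest of the 4 ratios -1.502), AT1G52342 (-1.505), HTA1 (-1.506), ELI3-1 (-1.509) and AT2G32880 (-1.519). Just outside lay LSU1 (-1.490), HPL1 (-1.485), SAUR20 (-1.482), AT2G32870 (-1.476) and JAL34 (-1.472), which include a further SAUR and a further jacalin. By warm level, PUT1 was inside at 5.04 FPKM and the jacalin gene JAL22 outside at 4.71 FPKM, as was SAUR22 at 4.58 FPKM.

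**Figure D1:**
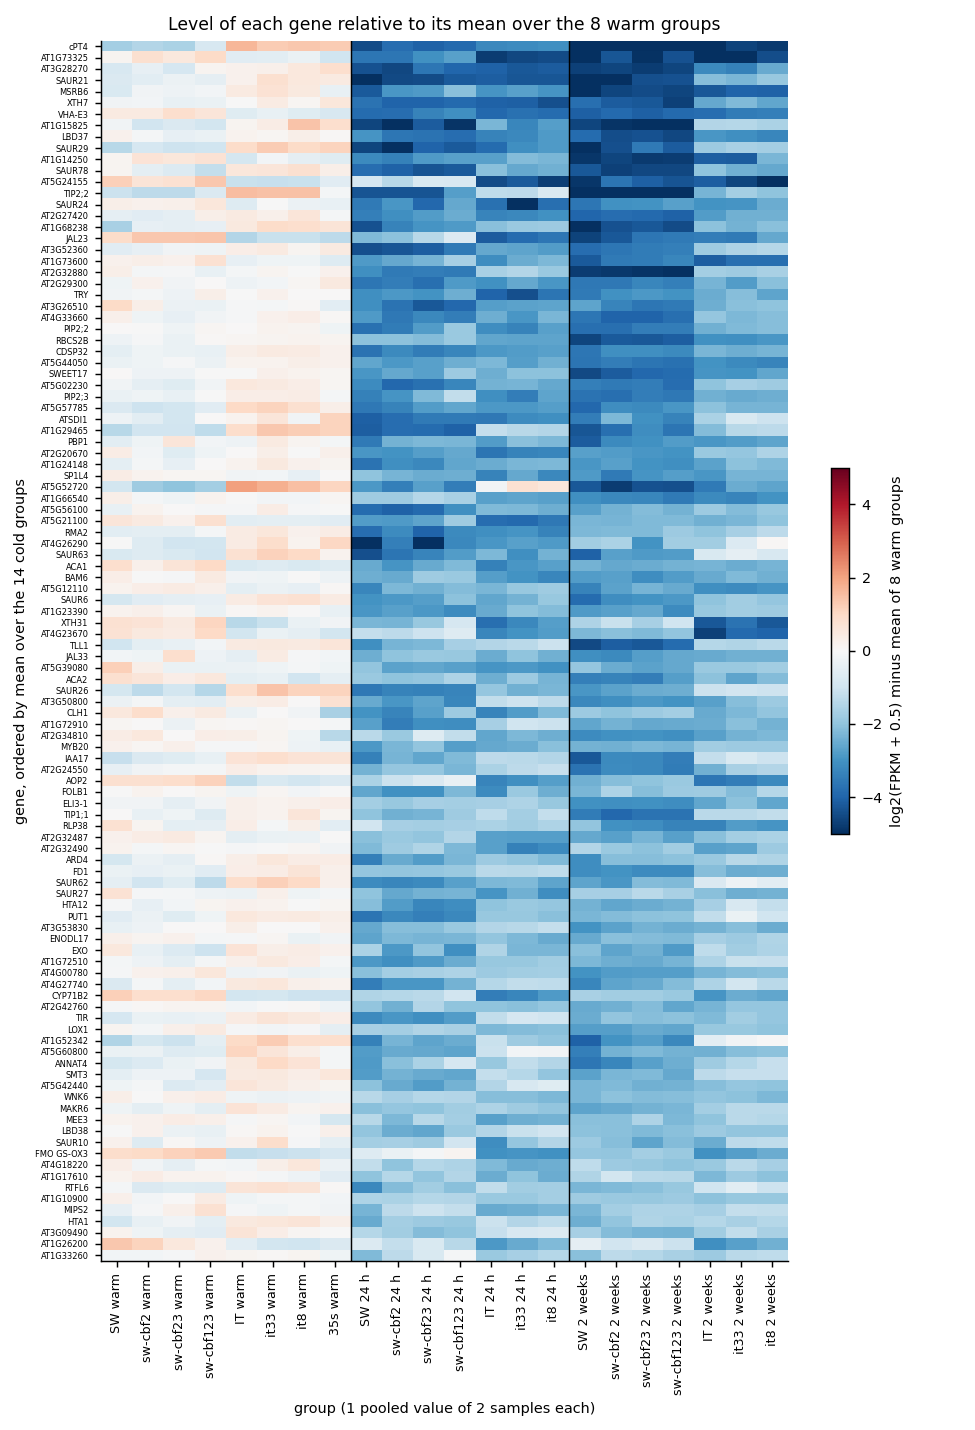
Each row is 1 of the 108 genes and each column 1 of the 22 groups, and colour gives log2(FPKM + 0.5) minus the gene's mean over the 8 warm groups. Blue covers nearly all of the 14 cold columns, and the paler cells at 24 h or 2 weeks mark the line and time at which single genes were less reduced.

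The largest gene group was the SAURs, with 10 members (SAUR6, 10, 21, 24, 26, 27, 29, 62, 63 and 78) among 24 SAUR genes at 5 FPKM or more in both warm wild types. SAUR78 was the most abundant. In the warm it was at 188, 121, 108 and 74.2 FPKM in SW, sw-cbf2, sw-cbf23 and sw-cbf123, and at 256, 261, 298 and 212 in IT, it33, it8 and 35s. After 24 h of cold it was at 8.05 to 11.9 FPKM in the 4 SW-background lines and at 29.1 to 40.0 in the 3 IT-background lines. After 2 weeks the ranges were 6.23 to 8.57 and 29.1 to 42.5 FPKM. Warm and cold groups did not overlap, and in both cold treatments the SW-background lines lay below the IT-background lines.

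SAUR21 and SAUR24 belong to the SAUR19 subfamily, whose members promote cell expansion. SAUR21 was at 14.7 to 43.0 FPKM in the warm and at 0.105 to 0.926 FPKM after 24 h in the 7 lines. At 2 weeks it was at 0.184 to 0.723 FPKM in the SW-background lines and at 4.66 to 6.15 FPKM in IT, it33 and it8, higher than at 24 h in each of these 3 lines. SAUR24 had log2 ratios of -5.0 to -2.20 in the 5 lines that the rule did not use. SAUR62 and SAUR63, the latter known to promote organ elongation, lie next to each other on chromosome 1 (10302585 to 10305108), with the uncharacterized member AT1G29465 ending at 10309896. SAUR63 was at 6.79 to 8.47 FPKM in the warm in the SW background and at 15.6 to 30.8 in the IT background. After 2 weeks it was at 0.355 to 1.62 FPKM in the SW background and at 7.49 to 9.87 in IT, it33 and it8, a range that overlapped the warm level of the SW lines. SAUR29, SAUR27 and SAUR26 lie within 976715 to 983768 of chromosome 3, with other genes between them. Neighbouring SAURs are close copies, so reads may have been split between them, and single values of this family are less certain than those of other genes.

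Beside the SAURs, the Aux/IAA repressor IAA17 (AXR3) was at 31.2 to 53.4 FPKM in the warm in the SW background and at 107 to 124 FPKM in the IT background. After 24 h it was at 6.22 to 14.4 and at 24.7 to 27.4 FPKM, and after 2 weeks at 3.21 to 7.23 and at 30.3 to 40.6 FPKM. EXO, a brassinosteroid-induced gene that promotes leaf growth, was at 14.8 to 50.6 FPKM in the 8 warm groups, at 3.23 to 10.5 after 24 h and at 3.93 to 12.5 after 2 weeks. XTH7 was at 102 to 194 FPKM in the warm and at 5.69 to 9.80 after 24 h in the 7 lines. After 2 weeks it was at 4.62 to 9.06 FPKM in the SW background but at 21.4 to 28.3 in the IT background, the reverse of the order at 24 h, when the SW background was at 7.71 to 9.80 and the IT background at 5.69 to 7.54. XTH31, whose product acts on xyloglucan, was at 61.0 to 95.4 FPKM in the SW background in the warm against 17.1 to 40.2 in the IT background. SP1L4, related to the microtubule protein SPIRAL1, and TRY, a repressor of trichome formation, had median log2 ratios of -2.55 and -2.78 over the 10 cold contrasts of the lines that the rule did not use.

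The 4 water channels were TIP1;1, TIP2;2, PIP2;2 and PIP2;3, out of 16 aquaporins at 5 FPKM or more in both warm wild types. TIP1;2, a tonoplast channel that was not a member, was at 1028 FPKM in SW and 1043 in IT in the warm. TIP1;1, also of the tonoplast, was less abundant, at 189 to 443 FPKM in the warm. After 24 h TIP1;1 was at 54.7 to 84.0 FPKM in the SW background and at 90.6 to 129 in the IT background. After 2 weeks it was at 18.6 to 25.5 FPKM in the SW background and at 114 to 126 in the IT background, so the level was lower than at 24 h in each SW-background line, while in IT, it33 and it8 the 24 h and 2-week ranges overlapped. PIP2;2 was at 64.3 to 85.0 FPKM in the warm in all 8 lines. After 24 h it was at 5.16, 6.27, 10.4 and 20.7 FPKM in SW, sw-cbf2, sw-cbf23 and sw-cbf123, and at 8.39 in IT, 6.96 in it33 and 11.1 in it8. PIP2;3 had the same order in the SW background, with 2.50, 3.5, 6.15 and 12.8 FPKM. The SW values at 24 h entered the rule, so SW at the low end of this order is favoured by the choice of the genes. PIP2;2 and PIP2;3 are neighbours on chromosome 2 (15613368 to 15619155) with nearly the same coding sequence, so reads may be shared and they are not independent evidence. TIP2;2 was at 26.9 to 40.4 FPKM in the warm in the SW background, at 187 to 196 in IT, it33 and it8, and at 62.7 in 35s.

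The most abundant member was RBCS2B, a gene of the Rubisco small subunit. In the warm it was at 2298, 2624, 2200 and 2881 FPKM in SW, sw-cbf2, sw-cbf23 and sw-cbf123, and at 2934, 2983, 3108 and 3007 in IT, it33, it8 and 35s. After 24 h it was at 616 to 765 FPKM in the SW background and at 439 to 455 in the IT background. After 2 weeks the order was turned round, with 113 to 156 FPKM in the SW background and 325 to 359 in the IT background. The warm and cold ranges did not overlap, and neither did those of the backgrounds at each cold time. The related RBCS3B, which was not a member, was at 218 FPKM in SW and 753 in IT after 2 weeks. RBCS1A, also not a member, was more abundant than RBCS2B, at 23948 FPKM in SW and 19346 in IT in the warm. Its log2 ratios at 24 h and 2 weeks were -0.12 and 0.32 in SW and -0.24 and 0.54 in IT, so the decrease did not extend to this copy in the wild types. RBCS genes are near-identical, and RBCS1A is listed at 0 in sw-cbf123 after 2 weeks, so the split of reads among the copies is uncertain.

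FD1, a leaf ferredoxin that passes electrons on from photosystem I, was at 712 to 838 FPKM in the warm in the SW background and at 1253 to 1652 in the IT background. It was at 266 to 292 and at 400 to 431 FPKM after 24 h, and at 119 to 131 and at 190 to 238 after 2 weeks, and the SW background lay below the IT background in each treatment. CDSP32, a chloroplast thioredoxin-like protein, was at 145 to 281 FPKM in the warm, and at 15.1 to 41.2 over all cold groups. MSRB6, which repairs oxidized methionine, was at 162 to 456 FPKM in the warm, 14.8 to 64.8 after 24 h and 4.14 to 16.9 after 2 weeks. The lowest cold values were in SW, whose cold groups entered the rule. CLH1, a chlorophyllase that strips the phytol tail from chlorophyll, was at 129 to 287 FPKM in the warm in 7 lines and at 50.7 in 35s. The alpha carbonic anhydrase gene ACA1 was at 97.9 to 164 FPKM in the warm in the SW background and at 47.7 to 52.3 in the IT background, and at 7.35 to 17.4 in all cold groups, where the backgrounds overlapped. SWEET17, which moves fructose across the tonoplast, was at 68.1 to 97.5 FPKM in the warm, at 10.6 to 22.7 after 24 h and at 3.12 to 13.0 after 2 weeks.

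**Figure D2:**
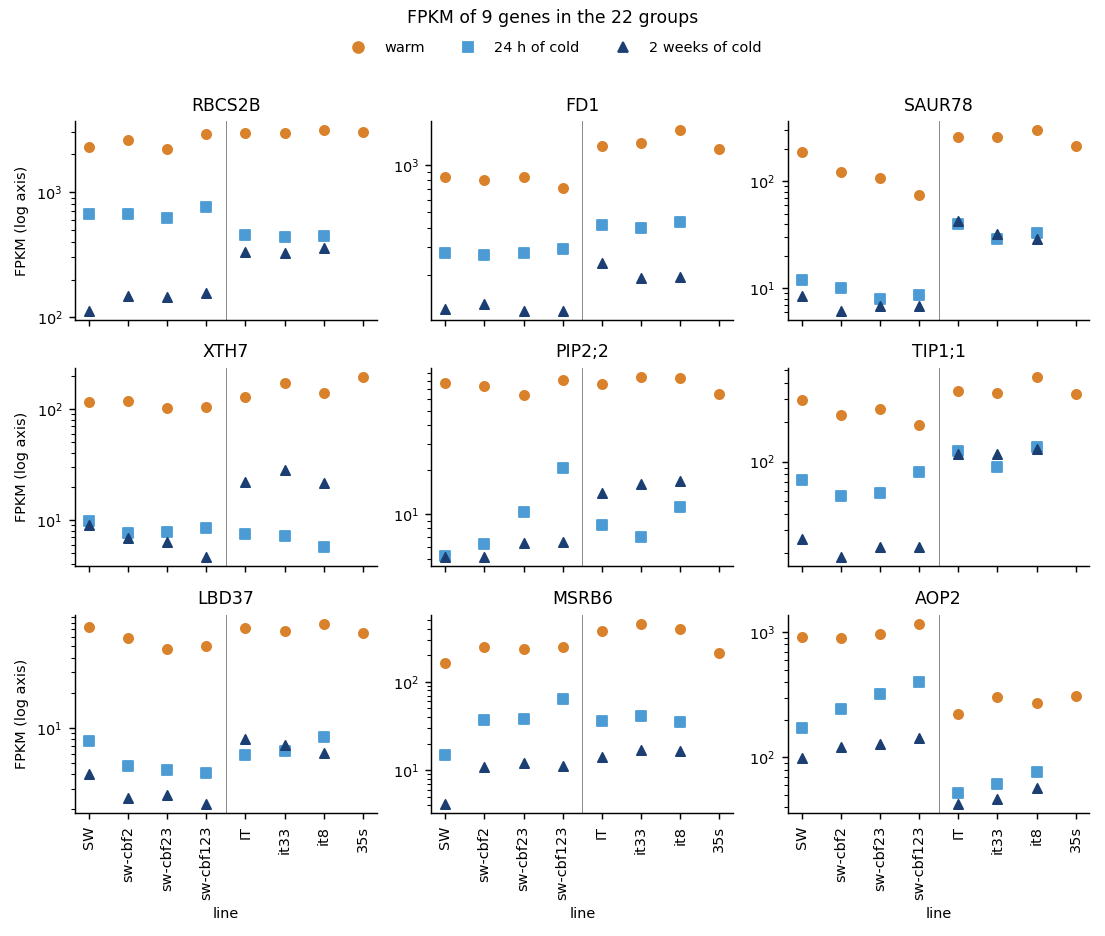
FPKM on a log axis for 9 of the genes, by line, with warm groups as circles, 24 h of cold as squares and 2 weeks as triangles, and a grey line between the SW and IT backgrounds. RBCS2B and TIP1;1 at 2 weeks are lower in the 4 SW-background lines, 113 to 156 and 18.6 to 25.5 FPKM, than in the 3 IT-background lines, and PIP2;2 at 24 h is highest in sw-cbf123, and at 20.7 FPKM.

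Genes of nitrogen and sulfur use included LBD37 and LBD38, nitrate-induced regulators that repress nitrogen uptake and anthocyanin genes. LBD37 was at 47.5 to 78.2 FPKM in the warm, at 4.07 to 8.34 after 24 h and at 2.22 to 7.96 after 2 weeks, and its log2 ratio was -3.15 or less in each of the 10 contrasts that the rule did not use. LBD38 was at 13.0 to 20.1 FPKM in the warm and at 2.39 to 8.47 after 24 h, with the highest 24 h value in it8. ATSDI1, a sulfur-deficiency gene that represses glucosinolate synthesis, was at 9.69 to 42.1 FPKM in the warm and at 0.663 to 1.79 after 24 h. After 2 weeks it was at 1.27 to 3.55 FPKM in the SW background and at 5.97 to 10.9 in the IT background. ARD4, an acireductone dioxygenase of the methionine salvage cycle, was at 118 to 323 FPKM in the warm and at 19.9 to 83.7 in the cold. AT1G73600, annotated as a methyltransferase, was at 363 to 963 FPKM in the warm and at 30.3 to 57.8 after 2 weeks.

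In glucosinolate side-chain modification, FMO GS-OX3, a flavin monooxygenase that oxidizes the sulfur of the side chain, and AOP2, which makes alkenyl glucosinolates, were members. AOP2 was at 904 to 1167 FPKM in the warm in the SW background and at 223 to 311 in the IT background. After 24 h it was at 172 FPKM in SW, a value that entered the rule, and at 245, 318 and 397 in sw-cbf2, sw-cbf23 and sw-cbf123. In the IT background the 24 h values were 52.1 to 76.8 FPKM. RefSeq annotates AOP2 in Col-0 as a transcribed pseudogene, so its level rests on reads matched to a broken reference copy. FMO GS-OX3 was at 107 to 145 FPKM in the warm in the SW background and at 24.3 to 32.4 in the IT background. JAL23, PBP1 and JAL33 encode jacalin-related lectins, and PBP1 binds the myrosinase-like enzyme PYK10. JAL23 was at 116 to 160 FPKM in the warm in the SW background and at 1.96 to 4.74 after 2 weeks. In the IT background it was at 21.8 to 28.3 FPKM in the warm and at 4.75 to 9.99 after 2 weeks, so the order of the backgrounds in the warm did not carry over to 2 weeks of cold.

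The remaining members were varied. TIR and AT1G72910, which encode TIR-domain proteins of the kind found in disease resistance receptors, are separated by 1 gene on chromosome 1. TIR was at 238 to 351 FPKM in the warm in the SW background and at 540 to 668 in the IT background, at 47.6 to 61.0 and at 183 to 240 after 24 h, and at 77.5 to 109 and at 92.4 to 130 after 2 weeks. The histone H2A genes HTA12 and HTA1 were at 15.1 to 23.6 and at 13.7 to 41.1 FPKM in the warm and at 1.63 to 11.2 and at 4.20 to 12.2 in the cold. VHA-E3, an isoform of a subunit of the vacuolar proton pump, was at 24.1 to 75.9 FPKM in the warm and at 1.99 to 4.65 in all cold groups. MIPS2 makes the precursor of inositol and was at 32.4 to 72.9 FPKM in the warm. The lowest mean of the 4 ratios that chose the genes was that of AT1G73325, annotated as a Kunitz-type protease inhibitor, at -4.48. Next was cPT4, a cis-prenyltransferase, at -4.41. AT1G73325 is listed at 0 in IT and it33 after 2 weeks, and cPT4 in sw-cbf23 and sw-cbf123 after 2 weeks, so that these ratios depend on the 0.5 FPKM added. Of the 108 genes, 13 are annotated in RefSeq only as uncharacterized proteins or by a domain of unknown function.

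The cold responses of the lines that the rule did not use are the independent measure of whether these genes were lower in the cold. In all of them the 108 genes were lower with few exceptions. In sw-cbf2, 108 of 108 genes were called down at 24 h, where 12.1% of all genes tested were, and 107 at 2 weeks, against 10.5%. In sw-cbf23, 104 genes were called down at 24 h (background 11.9%) and 108 at 2 weeks (9.71%). In sw-cbf123 the counts were 105 (11.5%) and 106 (11%). In it33 they were 107 (11.3%) and 105 (9.31%), and in it8 103 (10.7%) and 105 (8.84%). No member was called up in any of the 10 contrasts. The median log2 ratios were -2.49 and -2.80 in sw-cbf2, -2.35 and -2.61 in sw-cbf23, -2.13 and -2.80 in sw-cbf123, -2.54 and -2.25 in it33, and -2.37 and -2.0 in it8, at 24 h and 2 weeks. The median over all genes tested lay between -0.00 and 0.10 in these contrasts. These lines share their background with a wild type that chose the genes, but their libraries are their own.

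Of the 108 genes, 91 were called down in all 10 contrasts, against 1.71% of the 12017 genes at 5 FPKM or more in both warm wild types. Over sw-cbf2, sw-cbf23, sw-cbf123, it33 and it8 together, the lowest warm value was above the highest cold value for 88 of the 108 genes, against 9.24% of those 12017 genes. Of the 20 genes whose warm and cold values overlapped, 15 were called in warm level between the SW and IT lines in the comparison given further on, among them SAUR26, TIP2;2, AOP2 and JAL23. Over all 108 genes that comparison called 14 higher and 19 lower in the SW lines. The overlap pools both backgrounds, so a warm difference between them favours it by construction. The same share was not computed for the 12017 genes.

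**Figure D3:**
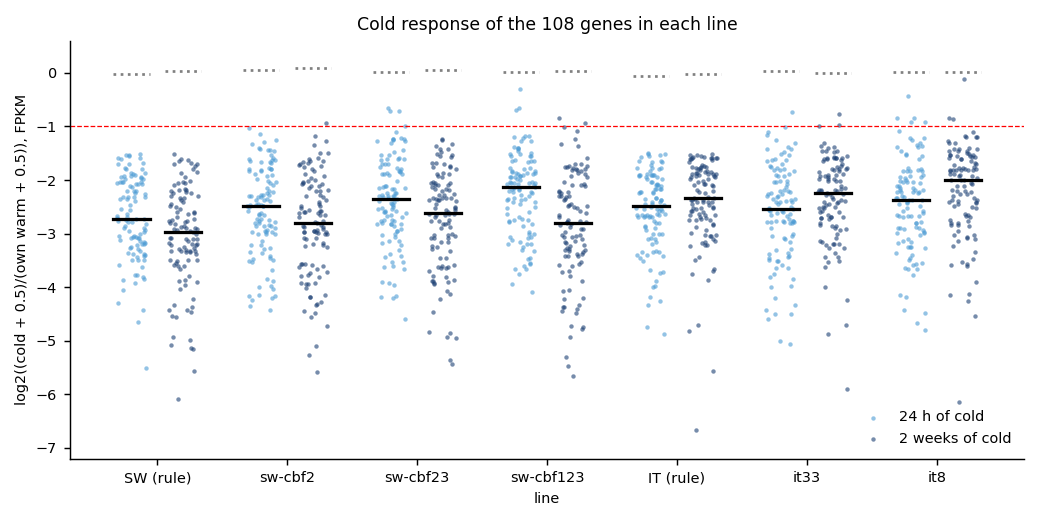
Each point is 1 of the 108 genes, placed by its log2 ratio of cold over warm in the same line, with black bars for the median, dotted grey bars for the median of all genes tested and a dashed red line at -1. The SW and IT ratios chose the genes; in the other 5 lines the medians lay between -2.80 and -2.0, and nearly all points lie under the dashed line.

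The exceptions were 22 of 1080 pairs of a gene and a contrast, in 17 genes. AT4G26290, an uncharacterized gene of 228 bases, was called down in 7 of 10 contrasts. It was at 11.5 to 46.3 FPKM in the warm, at up to 3.03 after 24 h, where it is listed at 0 in SW and sw-cbf23, and at 2.38 to 23.7 after 2 weeks, with the highest value in it8, where its log2 ratio was -0.12. AT1G33260, a protein kinase gene, was called down in 8 contrasts. After 24 h it was at 2.18 FPKM in SW, a value that entered the rule, and at 4.53, 6.70 and 11 in sw-cbf2, sw-cbf23 and sw-cbf123. In the warm it was at 10.6 to 13.6 FPKM in these lines. In sw-cbf123 its log2 ratio was thus -0.30 at 24 h and -1.80 at 2 weeks. The metal-binding proteins AT5G60800 and AT5G52720 were also called in 8 contrasts. After 24 h AT5G60800 was at 34.2 FPKM in it33 and 33.7 in it8, against 17.7 in IT and 5.08 to 6.29 in the SW background, and after 2 weeks at 3.13 to 8.70 in all lines. The other 13 genes missed the call in 1 contrast each, among them SAUR10 and ANNAT4, an annexin, in sw-cbf123 at 24 h, MIPS2 and PUT1 in it33 at 2 weeks and ATSDI1 in it8 at 2 weeks.

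Between 24 h and 2 weeks of cold most of the genes passed no call in the lines that the rule did not use. Among those called, lower outnumbered higher in the SW-background lines, and higher outnumbered lower in the IT-background lines. In sw-cbf2, 25 genes were called lower at 2 weeks than at 24 h, where the background was 7.54%, and 8 higher (6.45%). In sw-cbf23 the counts were 31 lower (8.63%) and 5 higher (6.59%), and in sw-cbf123 32 lower (7.15%) and 3 higher (5.31%). In it33, 12 were lower (11%) and 25 higher (8.25%), and in it8 15 were lower (11%) and 24 higher (8.44%). The median log2 ratio of 2 weeks over 24 h was -0.17, -0.36 and -0.49 in sw-cbf2, sw-cbf23 and sw-cbf123, and 0.27 and 0.25 in it33 and it8. The same median over all genes tested was between -0.01 and 0.04 in these 5 lines. The medians of the wild types, whose values chose the genes, were -0.30 in SW and 0.24 in IT. In 8 of the 108 genes the change went in opposite directions in the backgrounds, past 2-fold in every line of one of them, against 1.35% of the 12017 genes at 5 FPKM or more in both warm wild types. The difference between the backgrounds was not tested, since each line gives 1 pooled value per time.

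**Figure D4:**
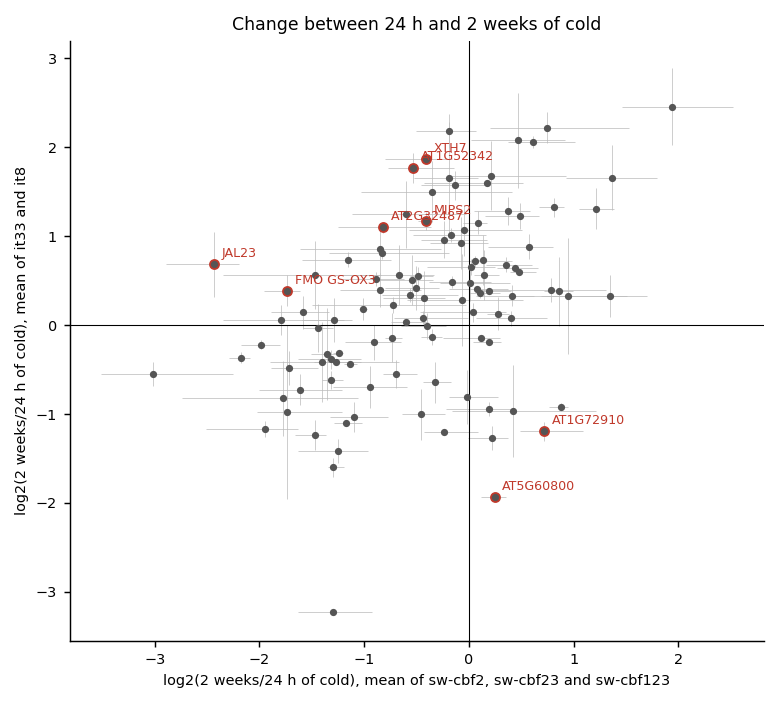
Each point is 1 of the 108 genes: the x axis gives the mean log2 ratio of 2 weeks over 24 h of cold in sw-cbf2, sw-cbf23 and sw-cbf123 and the y axis the mean in it33 and it8, with grey bars from the lowest to the highest line. Red points are the 8 genes that moved in opposite directions in the backgrounds, past 2-fold in every line of one of them, such as XTH7 (1.91 in it33 and -0.80 in sw-cbf123).

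Mutant lines were also compared with each other in the same treatment, to see whether these genes differed with the CBF genes mutated. The ratio of a mutant to its own wild type shares the libraries that chose the genes and was not used. At 24 h, 9 of the 108 genes were called between sw-cbf123 and sw-cbf2, against 2.41% of all genes tested, and all 9 were higher in sw-cbf123. They were PIP2;3 (log2 ratio 1.74), PIP2;2 (1.65), TIP2;2 (1.53), CLH1 (1.51), XTH31 (1.48), JAL23 (1.37), ANNAT4 (1.26), AT1G33260 (1.19) and AT5G21100, an ascorbate oxidase gene (1.04). In sw-cbf123, 7 of the 9 were still called down after 24 h against the warm, such as TIP2;2 at 9.39 and 40.4 FPKM, while AT1G33260 (11 and 13.6 FPKM) and ANNAT4 (11.3 and 18.1 FPKM) were not. Of all 108 genes, 82 had a ratio above 0, with a median of 0.31 where the median of all genes tested was 0.00. The share of all genes above 0 was not computed, and each line gives 1 pooled value. For 8 of the 9 genes sw-cbf23 lay between sw-cbf2 and sw-cbf123, as for CLH1 with 15.4, 23.3 and 44.8 FPKM. For TIP2;2 sw-cbf23, at 2.88 FPKM, lay at the level of sw-cbf2, at 2.92. The 9 genes were picked for a gap between sw-cbf2 and sw-cbf123, which by itself favours another line lying inside it. How often sw-cbf23 lay between them among all genes called in this contrast was not computed. A graded effect of the CBF genes was therefore not tested.

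In the warm and after 2 weeks this difference was not seen: 0 genes were called between sw-cbf123 and sw-cbf2 in the warm (background 2.02%), and 1, ATSDI1 (-1.08), after 2 weeks (1.74%). For sw-cbf23 over sw-cbf2 there was 1 call among the warm groups (1.96%), 4 among those of 24 h (1.93%) and 1 among those of 2 weeks (1.17%), and the calls at 24 h were AT1G15825 and AT2G34810, higher, and SAUR24 and AT4G26290, lower, the last of which is listed at 0 in sw-cbf23. For sw-cbf123 over sw-cbf23 the calls numbered 1 in the warm (1.54%), 6 after 24 h (2.73%) and 1 after 2 weeks (1.54%). Of those 6, TIP2;2, XTH31, PIP2;3, SAUR24 and AT4G26290 were higher in sw-cbf123, and EXO was lower, and the call of AT4G26290 again rests on the 0 listed for sw-cbf23. The contrasts among the SW lines share libraries and are not independent of each other. Between it8 and it33, 1 gene was called in each treatment (1.25%, 1.4% and 1.56% of all genes tested), each of them higher in it8: AT1G15825 in the warm, SAUR24 at 24 h and AT1G14250 at 2 weeks. The medians for it8 over it33 were -0.14, 0.06 and 0.02.

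The line 35s, compared in the warm, differed by a call from the IT-background lines in few of these genes. The methods of the study name CBF2-overexpressing plants among those sequenced, without tying them to this label, and CBF2 was at 540 FPKM in 35s against 0.202 in IT, 0.159 in it33 and 0.138 in it8. Against IT, whose warm library also entered the rule, 4 genes were called lower (background 3.68%) and 1 higher (1.77%). Against it33 the counts were 7 lower (2.81%) and 0 higher (1.71%), and against it8 3 lower (1.91%) and 1 higher (1.75%). CLH1, AT2G34810 and TIP2;2 were called lower in all 3 comparisons, which share the 35s library. AT2G34810, a berberine bridge enzyme-like gene, was at 10.2 FPKM in 35s, 33.6 in IT, 30.1 in it33 and 23.5 in it8. TIP2;2 was at 62.7 FPKM in 35s and at 187 to 196 in IT, it33 and it8, and CLH1 at 50.7 and at 129 to 160. XTH31 was the gene called higher against IT, at 40.2 and 17.1 FPKM, but in it8 it was at 36.0 FPKM. The median log2 ratio over the 108 genes was -0.08, -0.21 and -0.10 against IT, it33 and it8.

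The ecotype background in the warm was compared in sw-cbf2, sw-cbf23 and sw-cbf123 against it33, it8 and 35s. The line 35s stands among the IT lines by assumption. CBF2 was at 540 FPKM in it, so ecotype and CBF2 level cannot be told apart for its values. A gene was counted where the 3 lines of one background all lay above the 3 of the other and the mean log2 levels differed by 1 or more. In the SW lines, 14 genes were higher (2.66% of the 12017 genes at 5 FPKM or more in both warm wild types) and 19 lower (7.11%). The other 75 genes were called in neither direction, although some, such as FD1 (-0.86) and TIR (-0.81), met the first condition. With 35s left out, 12 genes were higher and 20 lower in the SW lines. The 19 lower genes held 7 of the 10 SAURs, with a difference of -2.44 for SAUR26, -2.06 for SAUR29, -1.79 for SAUR62, -1.57 for SAUR63, -1.36 for SAUR78, -1.09 for SAUR6 and -1.01 for SAUR21, and also IAA17 at -1.27 and EXO at -1.01. The lowest values were those of AT5G52720 (-3.29) and cPT4 (-2.59). The 14 higher genes were led by JAL23 (2.53), FMO GS-OX3 (2.15), CYP71B2, a cytochrome P450 (1.91), AT5G24155 (1.86) and AOP2 (1.76). Most of the SAURs and IAA17 were thus among the genes lower in the SW lines. FMO GS-OX3 and AOP2 of glucosinolate modification were among those higher. SAUR24 (0.58), SAUR27 (-0.11) and SAUR10 (-0.39) were called in neither direction. Reads of both ecotypes were aligned to the Col-0 reference, and the part of this in the differences was not tested.

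**Figure D5:**
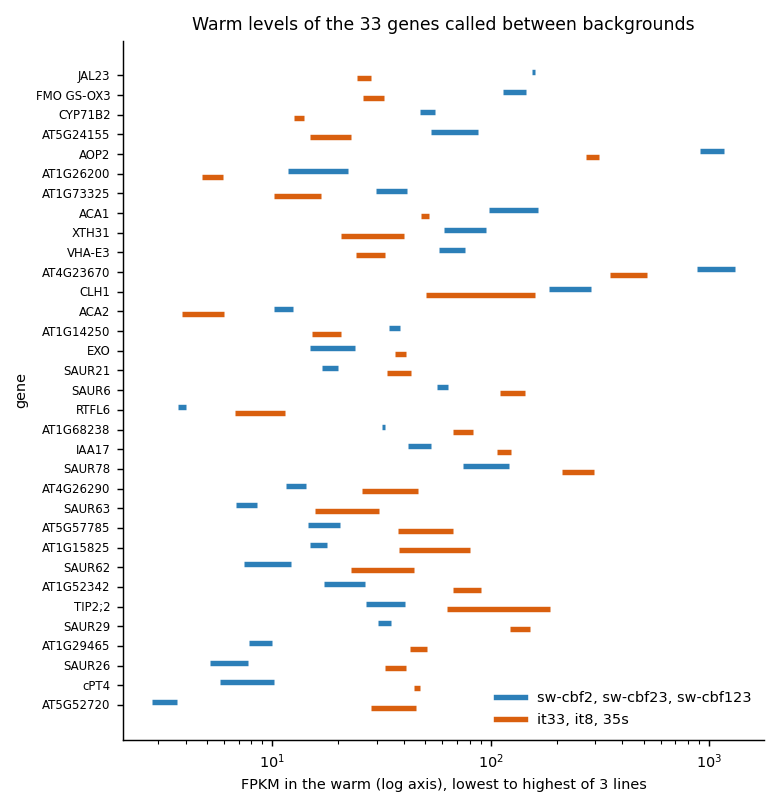
Bars run from the lowest to the highest warm FPKM of 3 lines, blue for sw-cbf2, sw-cbf23 and sw-cbf123 and orange for it33, it8 and 35s, on a log axis, for the 33 genes called between the backgrounds. JAL23 heads the 14 genes higher in the SW lines (154 to 160 against 24.3 to 28.3 FPKM) and AT5G52720 ends the 19 that were lower (2.82 to 3.64 against 28.2 to 45.4 FPKM).

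The wider families were read from 19 gene lists. Their counts include the members, 10 SAURs, 4 aquaporins and 2 glucosinolate genes, so part of each count comes from genes that the rule chose. Of the 78 SAUR genes in the table, 27 to 36 were called down in each of the 10 contrasts that the rule did not use, of 48 to 55 tested, and 1 to 6 up, with medians of -2.15 to -1.09. Of 17 aquaporins tested, 12 to 15 were called down in each contrast of sw-cbf2, sw-cbf23 and sw-cbf123, 12 and 11 at 24 h in it33 and it8, and 8 and 7 at 2 weeks. For aliphatic glucosinolate genes, 20 of 21 were called down at 2 weeks in each of sw-cbf2, sw-cbf23 and sw-cbf123, 7 in it33 and 5 in it8. At 24 h the counts were 9, 4 and 2 of 21 in those SW lines and 7 and 6 in it33 and it8, so the order of the backgrounds at 2 weeks was not that at 24 h. Light-harvesting protein genes gave no member: 11 to 16 of 21 were called down in each cold contrast of those 3 SW lines, but 2 of 21 at 2 weeks in it33 and in it8. At 2 weeks these counts include LHCB1.3, which is listed at 0, and without it they were 10, 11 and 10 of 20 in sw-cbf2, sw-cbf23 and sw-cbf123 and 1 of 20 in it33 and in it8. The xyloglucan and nitrate lists gave 2 members each, the Aux/IAA and brassinosteroid lists 1 each. No member came from the GH3, PRE and PAR, expansin, fasciclin-like, pectin methylesterase, sugar starvation, clock, heat shock, jasmonate, lipid transfer or defensin lists, and of 17 clock genes tested 10 to 12 were called up in each of the 10 contrasts. The share of all genes called up in these contrasts was not computed, so counts called up have no background beside them. A list without a member could still be lowered. Of 14 fasciclin-like genes tested, 8 to 11 were called down in each contrast of the 3 SW lines, with 0 up. In it33 and it8 the counts were 9 and 10 at 24 h, and 3 and 9 at 2 weeks. Of the PRE and PAR genes, 6 of 8 were called down at 24 h in it33 and in it8, but 1 of 8 at 2 weeks.

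The genes were short. Of 106 members with a transcript model in RefSeq TAIR10.1, 30 (28.3%) had a single exon, against 10.9% of the 11788 genes at 5 FPKM or more with a model. The 10 SAURs all had 1 exon, and without them the share was 20 of 96 (20.8%). The median transcript was 1343 bases against 1646, and 1379 without the SAURs. Gene length enters FPKM, and its part in the choice of the genes was not tested. The members lay on all 5 chromosomes, 32 on chromosome 1, 20 on 2, 17 on 3, 15 on 4 and 24 on 5, where the genes at 5 FPKM or more gave 25.9%, 15.3%, 20%, 15.4% and 23.4% and the members 29.6%, 18.5%, 15.7%, 13.9% and 22.2%. Direct neighbours were SAUR62 and SAUR63, CDSP32 and SMT3, AT2G32487 and AT2G32490, and PIP2;2 and PIP2;3.

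In the 250 bases before the transcript start, 11 short motifs were searched on both strands in the 106 members and in 26689 genes. The TATCCA element, known from sugar-repressed genes, was in 23 members (21.7%), in 13.4% of all promoters and in 14.6% of those of genes at 5 FPKM or more. The ABRE core ACGTG was in 30 (28.3%) against 23.3% of all, and the G-box CACGTG, which contains it, in 10 (9.43%) against 6.66%. The I-box GATAAG was in 18 (17.0%) against 12.3%. The auxin response element TGTCTC was in 7 (6.60%) against 11.1%, and in 2 of the 10 SAURs, and TGTCGG in 5 (4.72%) against 4.20%. The CRT/DRE core CCGAC, which overlaps TGTCGG on the other strand, was in 11 (10.4%) against 12.2%. The evening element AAAATATCT was in 1 member (0.943%) against 2.38%, the telo-box AAACCCTAA in 0 against 2.76%, and the brassinosteroid elements CGTGTG and CGTGCG in 8 (7.55%) and 3 (2.83%) against 5.39% and 1.55%. The median share of G and C was 31.0% in the members and 31.6% in all promoters. These shares describe the letters of the Col-0 reference and were not tested.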

How the data were processed

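Whole aerial tissue of 22 groups was sequenced (44 samples, 2 per group). The authors aligned reads to TAIR10 with TopHat 2.1.0 and Bowtie2 2.2.6 and estimated FPKM with Cufflinks (2.2.1 in the methods, 2.1.1 in the submitters' processing notes), and the deposited FPKM are 1 pooled value per group from Cuffdiff for 33557 genes. SW and IT reads were thus set against the Col-0 reference. Library depths are not known, so no sampling error is given.

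The design foresaw limma on replicate columns. With 1 column per group it could not be fitted, and ratios were used instead: 0.5 FPKM was added to both groups, and a call needed a log2 ratio of 1 or more in size and 1 FPKM in one of the groups. Gene names, positions, exons and promoters came from RefSeq TAIR10.1, and all 108 genes were found there. Python 3.11.15, NumPy 2.4.6 and pandas 2.3.3 were used, and the procedure was tested on simulated data. The genes named are the most abundant members, those with the lowest ratios, members of the gene lists or of families with 3 or more members, those least often called in the other lines, those at the ends of the line comparisons and those next to the limits. Any further gene was picked once its values were known. The members, lists, motifs and printed promoters were chosen with earlier results of these data known. The 19 lists were matched by symbol, and after their counts had been seen genes of another family that shared a symbol were removed, and the pectin list was narrowed to pectin methylesterases. Alternatives were 0.1 or 1 FPKM added, median-of-ratios scaling, quantile normalization, other limits and other reference groups.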

Additional observations from a re-analysis of the deposited data

Results flagged for a closer look

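In 8 of the 108 genes the change from 24 h to 2 weeks of cold went one way in all of sw-cbf2, sw-cbf23 and sw-cbf123 and the opposite way in both it33 and it8, past 2-fold in every line of one background, against 1.35% of the 12017 genes at 5 FPKM or more in both warm wild types. Each value below is a log2 ratio of 2 weeks over 24 h, in that order of lines. The difference between the backgrounds was not tested, since each line gives 1 pooled value per time. For the uncharacterized gene AT1G52342 the ratios were -0.68, -0.14, -0.77 in the SW lines and 1.60 and 1.94 in the IT lines. In the glucosinolate S-oxygenase gene FMO GS-OX3 they were -1.63, -1.61, -1.96 in the SW lines and 0.21 and 0.56 in the IT lines. The values of the TIR-domain gene AT1G72910 were 1.09, 0.49, 0.58 in the SW lines and -1.09 and -1.30 in the IT lines. For the inositol synthesis gene MIPS2 they came to -0.38, -0.49, -0.35 in the SW lines and 1.27 and 1.07 in the IT lines. Between 24 h and 2 weeks the IT lines thus went up in AT1G52342 and MIPS2 and down in AT1G72910. The values of the uncharacterized gene AT2G32487 were -0.84, -0.36, -1.25 in the SW lines and 1.04 and 1.16 in the IT lines. In the lectin gene JAL23 the ratios were -2.20, -2.20, -2.89 in the SW lines and 0.32 and 1.05 in the IT lines. The ratios of the wall enzyme gene XTH7 were -0.16, -0.26, -0.80 in the SW lines and 1.91 and 1.83 in the IT lines. For the metal-binding protein gene AT5G60800 the values were 0.12, 0.35, 0.27 in the SW lines and -1.98 and -1.89 in the IT lines.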

How the results depend on the processing

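No paired analysis was possible because the table holds 1 pooled value per group, and for the same reason no replicate could be left out. The rule gave 311 genes with a limit of -1, which include all 108, and 41 with a limit of -2, all of them among the 108. Under the other 6 alternatives (0.1 or 1 FPKM added, both scalings, warm minimum of 1 or 10 FPKM) it gave 83 to 134. The counts called down in the cold in the lines that the rule did not use stayed between 100 and 108 of their genes under all 60 alternatives. The calls between lines, summed over the 12 contrasts, went from 27 to 41 with 0.1 FPKM added. Of the single contrasts between lines, 11 counts moved by over 1.5 times, each between 0 and 7, and the 9 calls of sw-cbf123 over sw-cbf2 at 24 h were not among them. For 35s, the 4 genes called lower and 1 higher against IT became 7 and 0 with it33 as the reference. Alternatives for the change from 24 h to 2 weeks and for the ecotype background were chosen after seeing the data: 2 of 40 of the former moved, both in sw-cbf23, where 5 genes higher became 8 with 0.1 FPKM and 3 with 1 FPKM added, and the latter gave 12 to 20. Scaling moved the median of all genes of a group by -0.09 to 0.08 on the log2 scale. Depth is unknown, so how far it limits low values cannot be given.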
